A study of Mus musculus with 10 samples.

Results

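The genes described here encode DARPP-32 and 7 related proteins that regulate, or are, the phosphatases and kinases acting beside it in striatal neurons. They are Ppp1r1b, Arpp21, Arpp19, Ptpn5, Ppp1ca, Ppp1r1a, Cdk5 and Cdk5r1, taken by symbol from the 32531 gene rows of the count files, and all 8 were found and all 8 passed the filter on low counts that left 14680 genes for testing. The assay was translating ribosome affinity purification followed by sequencing, in which ribosomes tagged with EGFP on the ribosomal protein L10a are captured from the cells that carry the tag, and the RNA on them is counted. All mice were adults of the line Drd1-TRAP CP73, in which the tag follows expression of the D1 dopamine receptor gene, on a background of FVB/N-Swiss Webster x C57BL/6 bred to C57BL/6 for at least 9 generations. In a short-access study of intravenous self-administration there were 3 pull-down libraries from mice that self-administered cocaine, 3 from a yoked control and 3 from mice that self-administered saline, all from whole striatum, and 1 input library of total striatal RNA. What yoked mice were given, which treatment the input came from and whether libraries came from separate animals are not in the labels, so p-values measure only the spread between these libraries, which may be technical.

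DARPP-32 is the protein through which dopamine, acting on D1 receptors and cyclic AMP, brakes protein phosphatase 1 in medium spiny neurons. Phosphorylated by protein kinase A it inhibits the phosphatase, and phosphorylated by CDK5 at another site it inhibits the kinase instead. Inhibitor-1, ARPP-19 and ARPP-21 are further substrates of protein kinase A, and the tyrosine phosphatase STEP, which opposes ERK signalling, is held inactive by the same kinase. Both the D1 and the D2 class of medium spiny neuron are known to contain DARPP-32, so its RNA in whole striatum comes from both.

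The 9 pull-downs held 12528806 to 45242175 counts in genes and the input 40519976, and the member with the fewest reads in any library, Cdk5 in saline 2, still had 1092. Levels are given in counts per 1000000 gene counts of the library (CPM). Lengths of transcripts were not used, so levels are compared between libraries for 1 gene and not between genes. Each group had its own sequencing lane in the labels, so group and lane cannot be told apart. The 8 markers of D1 neurons together stood at 2477 to 2834 CPM in cocaine, 2282 to 3388 in yoked and 2535 to 2979 in saline libraries, against 1137 in the input. The 7 markers of D2 neurons together stood at 241 to 300, 224 to 530 and 165 to 384 CPM in the same groups, against 1583 in the input. Astrocyte markers summed to 147 to 836 CPM in the pull-downs (147 to 332 in cocaine, 158 to 836 in yoked and 159 to 470 in saline) against 2194 in the input. Oligodendrocyte markers summed to 193 to 976 CPM against 2642, microglial markers to 4.66 to 26.5 against 84.2 and interneuron markers to 25.8 to 106 against 209. Vascular markers, of endothelial and mural cells, summed to 1.99 to 10.1 CPM against 27.9. Of 8 genes listed as markers of cortical glutamatergic neurons, Nrgn made up 92.7% of the sum, with a mean of 967 CPM over the pull-downs against 571 in the input. The other 7 summed to 22.4 to 122 CPM against 43.7 in the input. Among those 7, Slc17a6 and Emx1 were lower in the pull-downs on average, at 1.22 against 10.6 CPM and 0.203 against 0.321 CPM. No marker of any of these lists was at 0 in all 9 pull-downs.

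Each of the 8 genes was higher in every pull-down than in the input. Their median ratio to the input was 1.88, where the median of all 14680 genes was 0.972. Of all genes tested, 47.8% were above the input by their mean ratio, a looser measure than being above it in every pull-down. The 8 genes fell into 3 ranges. Ppp1ca, the gene of a catalytic subunit of protein phosphatase 1, averaged 481 ± 53.8 CPM over the pull-downs (SD, n = 9) and was at 187 CPM in the input, a mean ratio of 2.56 with single pull-downs from 2.19 to 3.03. Ppp1r1a, which encodes inhibitor-1, stood at 119 ± 16.0 CPM against 47.1 in the input, a ratio of 2.49, and Cdk5, the kinase gene, at 84.0 ± 10.6 against 33.3, a ratio of 2.48. These 3 genes were at least 1.5-fold above the input in every pull-down, as were 9.09% of all genes tested, while 14.9% were at least 1.5-fold below it in every pull-down and none of the 8 genes was. With 1 input library these ratios have no replicate check on that side, and fewer cells of a type and less RNA per cell cannot be told apart in them. Because they set RNA on ribosomes against total RNA, differences in ribosome loading cannot be told apart in them either.

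Ppp1r1b and Ptpn5 came next. Ppp1r1b, the DARPP-32 gene, averaged 3386 ± 556 CPM over the pull-downs (SD, n = 9) and was at 1739 CPM in the input, a ratio of 1.92, and Ptpn5, the STEP gene, at 1229 ± 183 against 657, a ratio of 1.85. Both were more than 1.5-fold above the input in every pull-down but yoked 3, where the ratios were 1.24 and 1.27. Without that library 5 of the 8 genes passed the fold in every pull-down. Leaving out a library can only keep or raise such a count, for all genes as for these. The share of 9.09% of all genes is for all 9 pull-downs and cannot be set beside the 5. The lowest ratios were those of Arpp19 at 1.46 (1.15 to 1.78 over the pull-downs), Arpp21 at 1.34 (1.09 to 1.63) and Cdk5r1 at 1.28 (1.18 to 1.42). In the ranking of all tested genes by this ratio, Ppp1ca lay at percentile 97.0, Ppp1r1b at 91.2 and Cdk5r1 at 70.4.

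**Figure D1:**
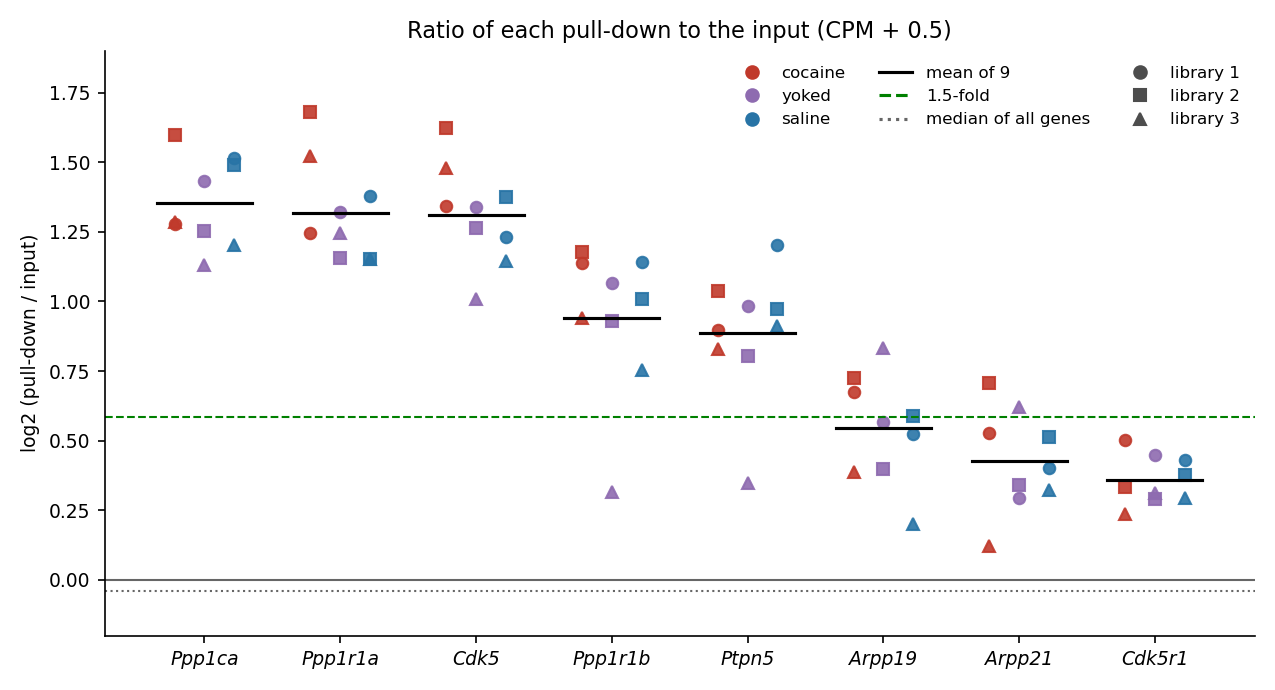
The plot of ratios to the input shows log2 of pull-down over input for each gene (vertical axis, CPM with 0.5 added), with 1 point per pull-down, coloured by group and shaped by library number, the mean of the 9 as a bar and the median of all genes as a dotted line. All points lie above 0, and the 2 points of Ppp1r1b and Ptpn5 under the dashed line at 1.5-fold are those of yoked 3.

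Cdk5 and Cdk5r1 differed in this ratio although their products work as a pair. Cdk5r1 encodes p35, the activator without which CDK5 has little activity. Within a library, which removes its scaling, log2 of the Cdk5r1 count over the Cdk5 count was 1.74, 1.28 and 1.33 in cocaine 1, 2 and 3, 1.69, 1.60 and 1.88 in yoked 1, 2 and 3, and 1.78, 1.58 and 1.73 in saline 1, 2 and 3, against 2.59 in the input. All 9 pull-downs thus lay below the input, at a mean of 0.512 of its count ratio, and cocaine 2 and cocaine 3 lay lowest. The count ratio of Ppp1r1b to Ppp1ca, inhibitor over target, had a log2 of 2.40 to 3.08 in the pull-downs against 3.22 in the input. The pull-downs were again all lower, at a mean of 0.750 of the input ratio.

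The inhibitors of phosphatases were compared between the groups first. Ppp1r1b (chromosome 11, 98348406 to 98357796 in GRCm38.p6) stood at 3824, 3930 and 3338 CPM in cocaine 1, 2 and 3, at 3641, 3312 and 2164 CPM in yoked 1, 2 and 3, and at 3835, 3497 and 2929 CPM in saline 1, 2 and 3. The groups overlapped, and in each group library 3 was the lowest of its 3. Log2 fold changes were 0.17 ± 0.17 (SE) for cocaine against saline, 0.30 ± 0.17 for cocaine against yoked and -0.13 ± 0.17 for yoked against saline, none of which passed edgeR's quasi-likelihood test (Benjamini-Hochberg adjusted p = 0.999, 0.974 and 0.999). Without yoked 3 the log2 fold change of cocaine over yoked was 0.13. In GRCm38.p6 the noncoding gene 1700003D09Rik covers 7079 of the 9391 bases that Ppp1r1b spans. Its counts were few, with a mean of 0.762 CPM over the pull-downs against 15.5 CPM in total RNA. Reads set aside in the files as ambiguous between genes, which no gene row holds, made up 2.54% to 3.03% of the uniquely placed reads of a pull-down against 6.63% of those of the input. Their part in the ratio of Ppp1r1b to the input was not tested.

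Ppp1r1a, whose product inhibitor-1 is the relative of DARPP-32 found in many tissues, stood at 112, 152 and 136 CPM in cocaine 1, 2 and 3, at 119, 106 and 112 CPM in yoked 1, 2 and 3, and at 123, 105 and 105 CPM in saline 1, 2 and 3. Cocaine 2 and cocaine 3 were the highest of the 9, while cocaine 1 lay among the yoked and saline libraries. The log2 fold change was 0.32 ± 0.14 (SE) for cocaine against saline, the largest of the 8 genes in that comparison. Its p was under 0.05 in edgeR's test only before adjustment (adjusted p = 0.999). The value was 0.27 ± 0.14 for cocaine against yoked and 0.06 ± 0.14 for yoked against saline, and neither passed. On chromosome 15 Ppp1r1a (103530279 to 103538027) lies 222 bases from Pde1b, a striatal phosphodiesterase gene, which had log2 fold changes of -0.03, 0.08 and -0.11 in the same 3 comparisons.

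Arpp19 (chromosome 9, 75037614 to 75060313) encodes a protein that, once phosphorylated by the greatwall kinase, inhibits protein phosphatase 2A. It stood at 1761, 1826 and 1443 CPM in cocaine 1, 2 and 3, at 1635, 1456 and 1968 CPM in yoked 1, 2 and 3, and at 1586, 1658 and 1270 CPM in saline 1, 2 and 3. Yoked 3 was the highest and saline 3 the lowest of the 9, and the groups overlapped. Log2 fold changes were 0.21 ± 0.16 (SE) for cocaine against saline, -0.0016 ± 0.16 for cocaine against yoked and 0.22 ± 0.16 for yoked against saline, and none passed. Without yoked 3 they were 0.16 for cocaine over yoked and 0.059 for yoked over saline.

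Arpp21 (chromosome 9, 112065091 to 112236288) encodes ARPP-21, also named regulator of calmodulin signalling, which binds calmodulin when phosphorylated. It stood at 5041, 5718 and 3808 CPM in cocaine 1, 2 and 3, at 4290, 4436 and 5380 CPM in yoked 1, 2 and 3, and at 4627, 4991 and 4375 CPM in saline 1, 2 and 3. The highest and the lowest of the 9 were both cocaine libraries. Log2 fold changes were 0.11 ± 0.16 (SE) for cocaine against saline, 0.05 ± 0.16 for cocaine against yoked and 0.06 ± 0.16 for yoked against saline, and none passed. The RefSeq annotation lists 51 curated transcripts for Arpp21, short and long forms among them, and counts per gene do not separate them.

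Arpp21 also contains the gene of the brain microRNA miR-128, Mir128-2, in its span on chromosome 9 (112118636 to 112118711, minus strand). The row of Mir128-2 held 0 counts in all 10 libraries, which allows up to 0.0663 to 0.239 CPM by library, counting error only, so that the values of Arpp21 say nothing of the microRNA. Its mature sequence in RefSeq (GRCm38.p6) is shown because its gene lies within Arpp21, with the seed, bases 2 to 8, in capitals.
mmu-miR-128-3p: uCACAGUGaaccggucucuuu

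RefSeq promoter windows, 250 bases before to 50 after a start site, matched 3 of the 8 genes, with 9 windows for Arpp21, 2 for Arpp19 and 2 for Ptpn5. They were searched on both strands for TGACG, the half-site of the cyclic AMP response element, and for GGGCGG, the GC box. The half-site was found in 3 windows, all of Arpp21, of which 2 overlap and share a site, so that there were 2 distinct sites, and in 20.8% of 32851 windows of all genes. The GC box was found in 1 window each of Arpp19 and Ptpn5 and in 35.7% of all windows, and the full element TGACGTCA, in 1.79% of all windows, was in none of the 13. The windows below are those of Arpp21 and Arpp19, shown because they kept close to each other over the pull-downs, and of Ptpn5, shown because it went the other way in yoked 3. For each gene a window with a match was picked, and a part of the motifs in the levels was not tested. Each reads 5′ to 3′ on the strand of its gene, with the matches in capitals. The Arpp21 window is chr9:112217212-112217511, the Arpp19 window chr9:75037482-75037781 and the Ptpn5 window chr7:47132549-47132848, of GRCm38.p6, on the minus, plus and minus strand.
Arpp21: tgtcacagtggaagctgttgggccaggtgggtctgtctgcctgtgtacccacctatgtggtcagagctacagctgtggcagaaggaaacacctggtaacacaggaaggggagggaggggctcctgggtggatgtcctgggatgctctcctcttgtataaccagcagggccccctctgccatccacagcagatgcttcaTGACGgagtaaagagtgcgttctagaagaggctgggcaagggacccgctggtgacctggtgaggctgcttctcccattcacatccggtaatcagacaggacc
Arpp19: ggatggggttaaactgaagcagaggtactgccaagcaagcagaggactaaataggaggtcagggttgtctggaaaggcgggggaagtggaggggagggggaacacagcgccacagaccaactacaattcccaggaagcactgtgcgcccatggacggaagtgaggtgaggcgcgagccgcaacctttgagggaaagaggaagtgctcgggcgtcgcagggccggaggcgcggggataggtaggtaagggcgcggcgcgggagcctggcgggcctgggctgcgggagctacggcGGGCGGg
Ptpn5: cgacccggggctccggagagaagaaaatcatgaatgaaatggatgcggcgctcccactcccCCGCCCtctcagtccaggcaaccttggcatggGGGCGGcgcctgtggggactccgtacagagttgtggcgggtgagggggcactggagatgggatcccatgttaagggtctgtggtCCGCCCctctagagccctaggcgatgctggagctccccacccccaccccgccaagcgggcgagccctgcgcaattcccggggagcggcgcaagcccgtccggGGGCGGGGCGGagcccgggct

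Of the phosphatases, Ptpn5 (chromosome 7, 47077795 to 47134026) stood at 1225, 1349 and 1168 CPM in cocaine 1, 2 and 3, at 1300, 1148 and 835 CPM in yoked 1, 2 and 3, and at 1513, 1289 and 1238 CPM in saline 1, 2 and 3. Yoked 3 was the lowest of the 9, and the other 8 libraries overlapped between groups. The log2 fold change was -0.05 ± 0.15 (SE) for cocaine against saline, 0.21 ± 0.15 for cocaine against yoked and -0.26 ± 0.15 for yoked against saline, and none passed (edgeR, adjusted p of 0.974 or more). Without yoked 3 the values were 0.07 for cocaine over yoked and -0.12 for yoked over saline. Membrane-bound and cytosolic forms of STEP arise from this gene, and counts per gene do not separate them.

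Ppp1ca (chromosome 19, 4192174 to 4195419) stood at 454, 567 and 456 CPM in cocaine 1, 2 and 3, at 505, 446 and 410 CPM in yoked 1, 2 and 3, and at 536, 526 and 431 CPM in saline 1, 2 and 3. The groups overlapped, and log2 fold changes were 0.05 ± 0.14 (SE) for cocaine against saline, 0.14 ± 0.14 for cocaine against yoked and -0.09 ± 0.14 for yoked against saline, and none passed. The fit scales libraries by TMM: on the CPM scale the mean was 492 in cocaine and 497 in saline libraries, so that the sign of the first value depends on the scaling. The interval of 2 SE on either side of the first value runs from -0.23 to 0.32. The span of Ppp1ca shares 224 bases with Rad9a, a checkpoint gene.

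Cdk5 (chromosome 5, 24407597 to 24423587) stood at 85.2, 104 and 93.7 CPM in cocaine 1, 2 and 3, at 85.0, 80.6 and 67.6 CPM in yoked 1, 2 and 3, and at 78.9, 87.2 and 74.3 CPM in saline 1, 2 and 3. The cocaine libraries lay above all yoked libraries on this scale by the margin between cocaine 1 and yoked 1, and overlapped them once libraries were scaled by TMM. Cocaine 2 and cocaine 3 were the highest of the 9, as for Ppp1r1a. Log2 fold changes were 0.29 ± 0.14 (SE) for cocaine against saline, 0.30 ± 0.14 for cocaine against yoked and -0.0023 ± 0.14 for yoked against saline. The first 2 had a p under 0.05 in edgeR's test only before adjustment (adjusted p = 0.999 and 0.974). Both comparisons with cocaine use the same 3 cocaine libraries. The span of Cdk5 shares 5163 bases with Abcb8, a mitochondrial transporter gene at 24.4 CPM in the pull-downs. It shares 4390 bases with Asic3, at 0.0495 CPM. The part of reads ambiguous between genes in the ratios of Cdk5 to the input and to Cdk5r1 was not tested.

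Cdk5r1 (chromosome 11, 80477023 to 80481184) stood at 284, 252 and 236 CPM in cocaine 1, 2 and 3, at 274, 245 and 249 CPM in yoked 1, 2 and 3, and at 270, 260 and 246 CPM in saline 1, 2 and 3. It was the steadiest of the 8 genes, with the group means at 257, 256 and 259 CPM. Log2 fold changes were 0.05 for cocaine against saline, 0.02 for cocaine against yoked and 0.03 for yoked against saline, each with an SE of 0.12, and none passed. Both comparisons with saline are below 0 on the CPM scale, as the means show, and above 0 only with TMM scaling.

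**Figure D2:**
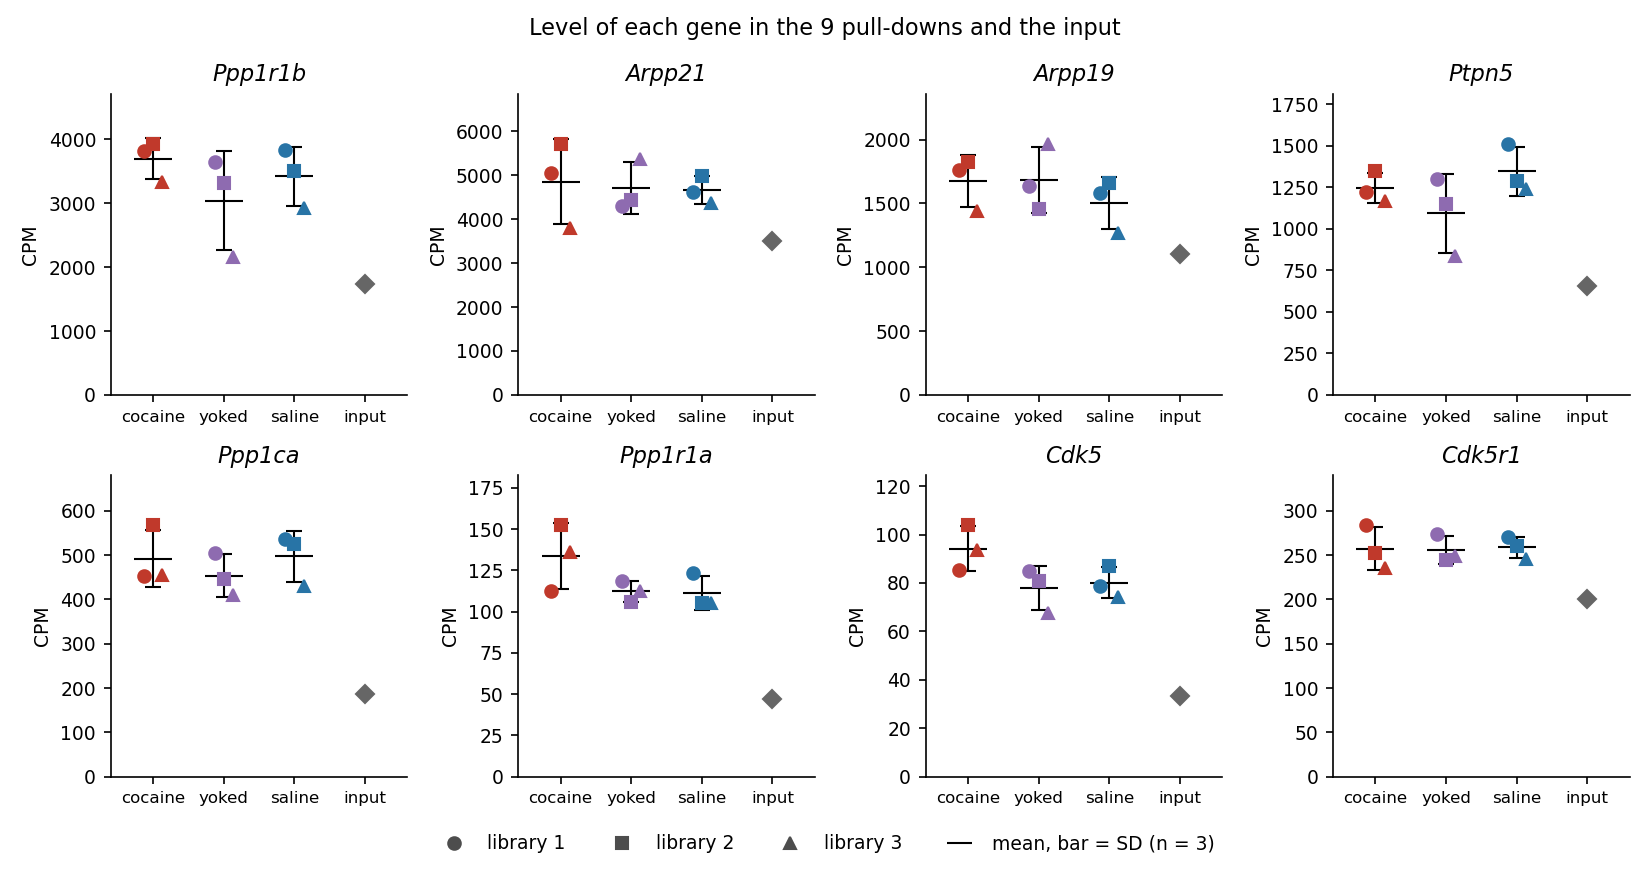
The plot of levels shows CPM (vertical axis, from 0) of each gene in cocaine, yoked and saline pull-downs and the input, with 1 point per library, shaped by library number, and the mean and SD of 3 in black. In every panel the groups overlap and the input lies below all pull-downs, but for Cdk5, where the lowest cocaine library at 85.2 lies just above the highest yoked library at 85.0.

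Over the 8 genes, none was called between cocaine and saline, between cocaine and yoked or between yoked and saline (edgeR's quasi-likelihood test, Benjamini-Hochberg adjusted p under 0.05), and the share of all 14680 genes called was 0% in each. DESeq2 and limma-voom also called none of the 8, and over all genes DESeq2 called 1 for cocaine against saline and limma-voom 0. Before adjustment 2 of the 8 genes were under 0.05 in edgeR's test for cocaine against saline, where 2.84% of all genes were, 1 for cocaine against yoked, where 2.58% were, and 0 for yoked against saline, where 1.84% were. The median log2 fold change of the 8 genes was 0.14 for cocaine against saline, with 7 of 8 above 0, where the median of all genes was 0.0036. Those 7 are counted with TMM scaling, and on the CPM scale Ppp1ca and Cdk5r1 were lower in cocaine than in saline, which left 5 of 8 higher. The median was 0.17 for cocaine against yoked, with 7 of 8 above 0, where all genes had -0.03, and 0.01 for yoked against saline, with 4 of 8 above 0 (3 of 8 on the CPM scale), where all genes had 0.03. None of the markers of other cells was called in the same fit, and for cocaine against yoked their log2 fold change was below 0 for 8 of 8 astrocyte markers (median -0.67), 8 of 8 oligodendrocyte markers (median -0.52), 8 of 8 microglial markers (median -0.61) and 7 of 7 D2 markers (median -0.36). For yoked against saline it was above 0 for 8 of 8 astrocyte markers (median 0.66) and 8 of 8 oligodendrocyte markers (median 0.57). It was also above 0 there for 6 of 7 D2, 6 of 8 microglial, 6 of 7 cortical, 6 of 9 interneuron and 3 of 5 vascular markers. The yoked libraries differed, with astrocyte sums of 360, 836 and 158 CPM and oligodendrocyte sums of 495, 976 and 193 CPM in yoked 1, 2 and 3. Markers of a list share these libraries and are not separate results. For cocaine against yoked 7 of 9 interneuron and 4 of 5 vascular markers were below 0, and 4 of 7 cortical markers were above 0. For cocaine against saline 6 of 7 cortical markers (median 0.49) and 0 of 5 vascular markers (median -0.51) were above 0. In the same comparison 3 of 9 interneuron, 4 of 8 astrocyte, 3 of 8 oligodendrocyte, 4 of 8 microglial and 4 of 7 D2 markers were above 0. The part of other cells in the values of the 8 genes was not tested. Leaving out cocaine 2, the library in which all 8 genes stood above their mean after TMM scaling (7 of 8 on the CPM scale), gave 0.09 for both comparisons with cocaine. Leaving out cocaine 3 gave 0.23 for cocaine against saline, and leaving out yoked 1 gave -0.029 for yoked against saline. After TMM scaling the libraries of the groups were separated for 0 of the 8 genes in each comparison. Among all genes 11.5% were separated for cocaine against saline (6.38% higher and 5.08% lower in cocaine). The same share was 6.76% for cocaine against yoked (3.42% higher and 3.34% lower in cocaine) and 6.69% for yoked against saline (3.3% higher and 3.39% lower in yoked). For each gene the groups next to each other in mean level thus overlapped on this scale. At these shares few or none of 8 genes would be separated. The 0 of 8 therefore does not set them apart from all genes.

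**Figure D3:**
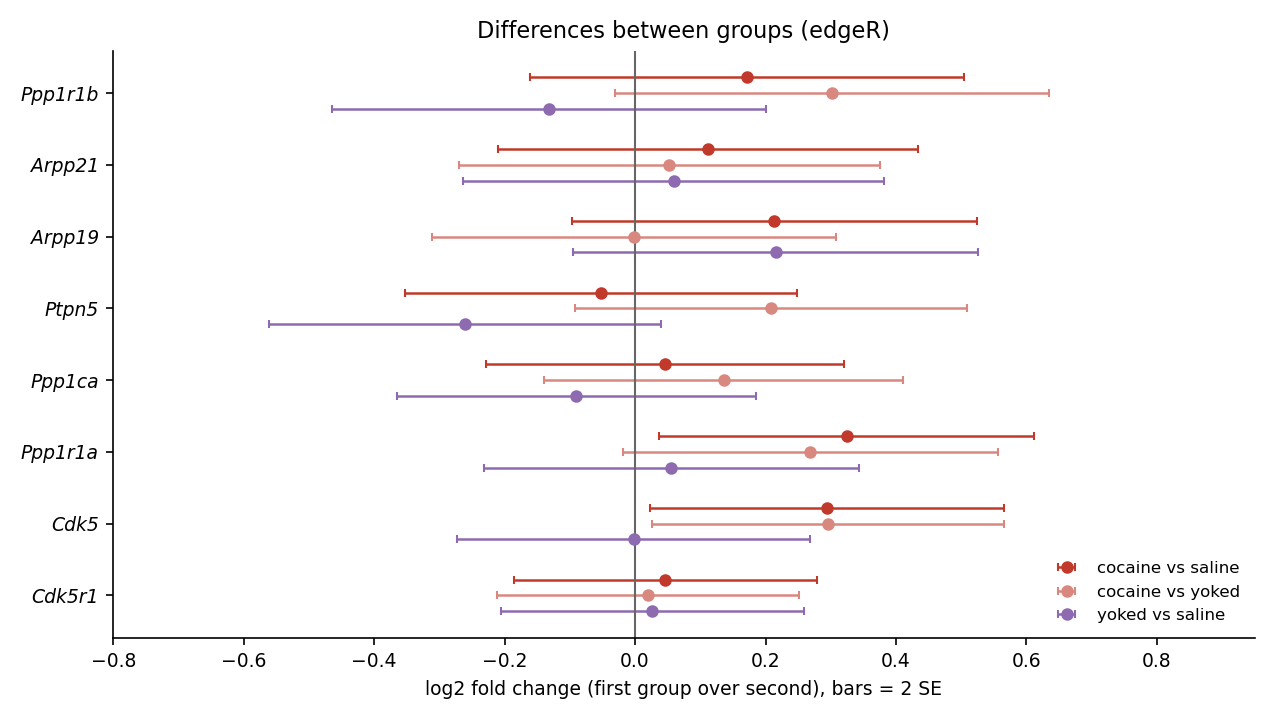
The plot of differences shows the edgeR log2 fold change of each gene (horizontal axis) in the 3 comparisons, with bars of 2 SE on either side. Most bars cross 0, and those of Ppp1r1a for cocaine against saline (0.04 to 0.61) and of Cdk5 in both comparisons with cocaine (0.02 to 0.56 and 0.03 to 0.57) do not, with adjusted p of 0.974 or more.

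The libraries of a group differed among themselves for these genes. Levels scaled by TMM were set against the mean of the 9 pull-downs of each gene on the log2 scale. In yoked 3, Ppp1r1b was at -0.56, Ptpn5 at -0.48, Cdk5 at -0.24 and Ppp1ca at -0.16, each its lowest of the 9. Arpp19 was at 0.35 and Arpp21 at 0.25 in yoked 3. That library had the highest sum of D1 neuron markers of the 9, at 3388 CPM, and 158 CPM of astrocyte markers, in the lower part of their range. It had the least Nrgn, at 576 CPM, and the highest sum of the other 7 genes of the cortical list, at 122 CPM. The part of these in the values of these genes was not tested. The log2 count ratio of Ppp1r1b to Arpp21 was -1.31 in yoked 3, against -0.58 to -0.19 in the other pull-downs and -1.01 in the input, and that of Ppp1r1b to Drd1 was 1.22 in yoked 3 against 1.96 to 2.73 in the other pull-downs and 2.39 in the input.

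In cocaine 2 all 8 genes were above their mean of the 9, from 0.0062 for Cdk5r1 to 0.40 for Ppp1r1a, and in yoked 2 all 8 were below it. Saline 3 had the lowest median deviation of the 8 genes, at -0.13 with 1 of 8 above the mean, against -0.09 in yoked 2. Cocaine 2 had 2477 CPM of D1 markers and 278 of astrocyte markers, and yoked 2 had the lowest sum of D1 markers, at 2282 CPM, and the highest of astrocyte markers, at 836 CPM, whose part in the levels was not tested. The root mean square of these deviations was 0.23 for Ppp1r1b, the largest of the 8, and 0.06 for Cdk5r1. Among the 5064 genes whose mean pull-down count reached 1000, 0.355% had a smaller one than Cdk5r1 and 75.5% a smaller one than Ppp1r1b.

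**Figure D4:**
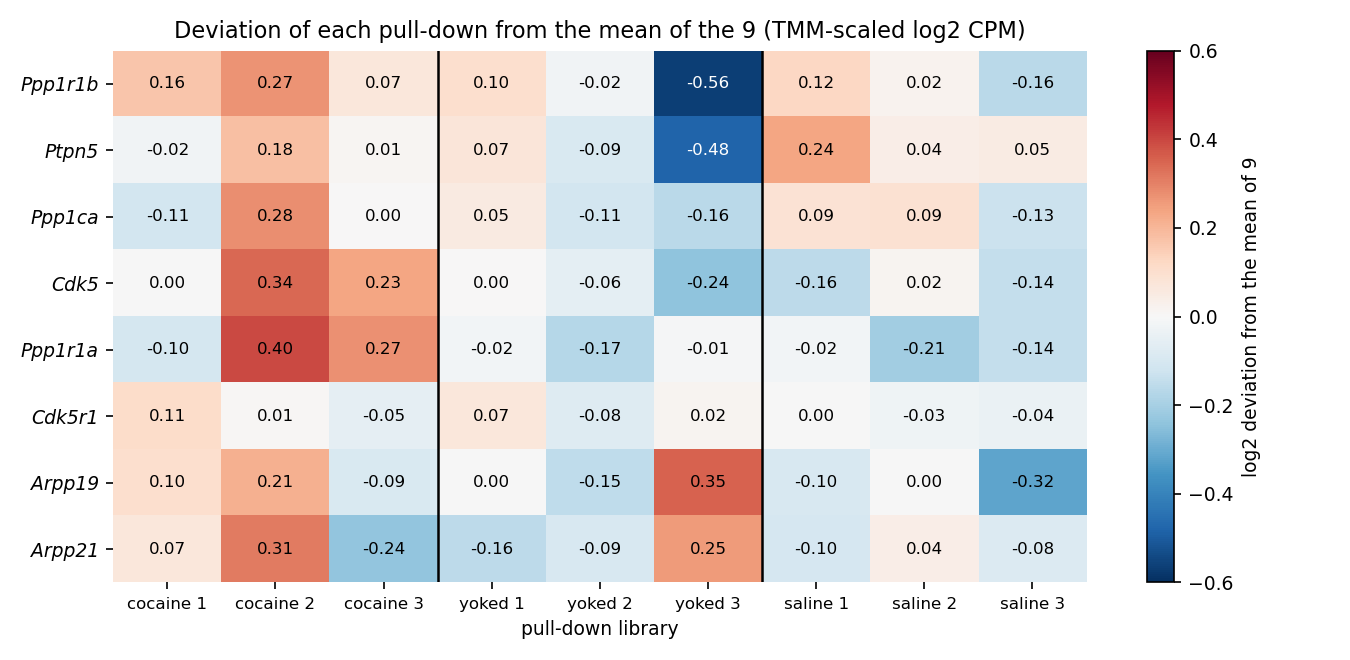
The map of deviations shows, for each gene (rows) and pull-down (columns), the log2 deviation from the mean of the 9, printed in the cell and coloured from blue, lower, to red, higher. In yoked 3 Ppp1r1b, Ptpn5, Ppp1ca and Cdk5 are the lowest of their rows and Arpp19 and Arpp21 are above 0. Cocaine 2 is above 0 in every row.

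Between genes, likeness was measured as the root mean square difference of these deviations over the 9 pull-downs. The closest pairs among the 8 were Ppp1r1b with Ptpn5, at 0.11, and Arpp21 with Arpp19, at 0.12, and the farthest were Arpp19 with Ptpn5 and Arpp19 with Ppp1r1b, each at 0.33. Ppp1r1b differed by 0.17 from Ppp1ca and from Cdk5, and by 0.25 from its relative Ppp1r1a. Among 10956 other genes, those most like Ppp1r1b were Slc35a4, at 0.05, Cend1, also at 0.05, and Cbx7, at 0.07. The gene most like Ptpn5 was Naa60, that most like Arpp21 was Rab9b, that most like Arpp19 was Atp6v1d, that most like Ppp1ca was Stk25, that most like Ppp1r1a was Aprt, that most like Cdk5 was Mrpl34 and that most like Cdk5r1 was Gopc, at differences of 0.03 to 0.06. These are descriptions of 9 libraries, with no test.

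The wider pathway was described with 6 lists of phosphatase, kinase and receptor genes that work beside the 8, of which 73 were tested. None was called in any of the 3 comparisons by edgeR with Benjamini-Hochberg adjustment, with 0, 2 and 0 genes under 0.05 before adjustment in the order below, and their median log2 fold changes were -0.0095 for cocaine against saline, -0.05 for cocaine against yoked and -0.02 for yoked against saline. The smallest unadjusted p-values, given as not passing, were those of the kinase gene Prkg1 for cocaine against saline (log2 fold change -0.35 ± 0.18, SE), of Cdk5rap3 for cocaine against yoked (0.53 ± 0.25) and of Ppp2r5e, a subunit gene of protein phosphatase 2A, for yoked against saline (0.26 ± 0.13). Against the input the 73 genes had a median ratio of 1.32, below that of the 8 genes. Of the 73, 9 were at least 1.5-fold above and 3 at least 1.5-fold below it in every pull-down. Among all genes tested 9.09% were above and 14.9% below by the same measure.

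Among 14 genes of protein phosphatase 1 the median ratio to the input was 1.10, with the inhibitors Ppp1r11 at 2.07 and Ppp1r2 at 1.92 highest and Ppp1r9b, which encodes the scaffold spinophilin, at 0.677 and Ppp1r16b at 0.744 lowest. The other catalytic subunit genes Ppp1cb and Ppp1cc were at 1.5 and 1.44, below Ppp1ca at 2.56. Among 15 genes of protein phosphatase 2A and the greatwall pathway the median was 1.37. Ensa, the close relative of Arpp19, was highest, at 2.89 against 1.46 for Arpp19, followed by the scaffold subunit gene Ppp2r1a at 1.76, and the lowest were Ppp2r3a at 0.453 and Ppp2r1b at 0.554. Calcineurin, which dephosphorylates DARPP-32 when calcium rises, and calmodulin had a median of 1.68 over 8 genes, with Calm2 at 3.56 and the catalytic subunit gene Ppp3cb at 2.11 highest and the calcineurin regulators Rcan2 at 1.01 and Rcan1 at 1.5 lowest. Over 17 genes of kinases that act on DARPP-32 and of CDK5 partners the median was 1.33, with Csnk2b, a casein kinase 2 subunit gene, at 2.14 and Cdk5rap1 at 1.83 highest and Cdk5rap2 at 0.211 and Prkg2 at 0.754 lowest. Among 9 genes of STEP substrates and related phosphatases the median was 1.26, with the kinase genes Ptk2b at 1.93 and Mapk3 at 1.62 highest and the glutamate receptor genes Gria2 at 0.808 and Grin2b at 0.938 lowest. In the cascade upstream, 10 genes had a median of 1.15, with Gnb2 at 2.30 and Drd1 at 2.07 highest and the G protein gene Gnas at 0.332 and Pde4b at 1.06 lowest. Cdk5r2, which encodes p39, the other activator of CDK5, was at 1.58, between Cdk5 at 2.48 and Cdk5r1 at 1.28.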

How the data were processed

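The deposited values are raw read counts per gene symbol, 1 file per library. The submitters' processing notes name STAR 2.0.0e, HTSeq and the build mm10. Sources used here do not give the annotation, strand setting, counting mode or the version of HTSeq, so reads of overlapping genes on opposite strands cannot be told apart. The 6 rows naming no gene were left out.

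All pull-downs entered 1 fit (R 4.3.3, edgeR 4.0.16, robust quasi-likelihood test, TMM, filterByExpr, group as the only term), adjusted over 14680 genes by Benjamini-Hochberg and called at an adjusted p under 0.05. Standard errors are the log2 fold change over the root of F. TMM factors were 0.954 to 1.05. Ratios to the input are means over the pull-downs of log2 CPM with 0.5 added. The procedure was tested on simulated data with changes larger than any of the 8 genes, so that test does not cover changes of their size. Alternatives were RLE factors, no filter, DESeq2 1.42.0, limma-voom 3.58.1, a replicate block, fits of 2 groups, Rn45s left out, another pseudocount, other library sizes for the ratios and each pull-down left out. Rn45s, a ribosomal RNA row, took 10.5% to 20.5% of the counts of a pull-down.

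The members and lists, the lists of cell type markers included, were chosen with earlier results of these data known. All 8 members are named. Pathway genes are named by the smallest unadjusted p in each comparison, where none was called, and by the 2 highest and 2 lowest ratios of each list; Ppp1cb, Ppp1cc, Cdk5r2 and Pde1b were named after their values were seen. Genes most like a member have a mean count of at least 50 and no predicted, clone or small RNA symbol. Of 75 pathway symbols 74 were in the files. Positions and sequences are from RefSeq, GRCm38.p6.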

Additional observations from a re-analysis of the deposited data

Results flagged for a closer look

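Ptpn5 in yoked 3 lay far below the other pull-downs. On the log2 scale of TMM-scaled CPM its gap to the next lowest library was 0.539 of the whole range of the 9, above Dixon's 95% critical value. Chance flags about 1 group in 20, 8 genes were examined, and the 9 libraries belong to 3 groups. The gap of Ppp1r1b in the same library was 0.480 of its range, under the critical value.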

How the results depend on the processing

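None of the 8 genes was called under any of the alternatives run. Over all genes, 1 gene was called in place of 0 for cocaine against saline by DESeq2, by the fit of the 2 groups and with the replicate block, and 1 for cocaine against yoked and 1 for yoked against saline with the replicate block. The gene was Gh in the blocked fits and the clone AK155692 in the others, both named after their values were seen. Leaving out 1 pull-down gave 0 to 1 called genes for cocaine against saline and for yoked against saline, the 1 being AK155692 without yoked 3. In the blocked fit the log2 fold changes for cocaine against saline were 0.18 for Ppp1r1b and 0.32 for Ppp1r1a, and the block changed no call among the 8. For cocaine against yoked, Ppp1r1b was at 0.33 ± 0.14 (SE) with the block. Its unadjusted p in edgeR's test was 0.031 there (adjusted p = 0.971) and 0.091 in the main fit. Deviations of same-numbered libraries correlated at -0.0168 to 0.246 across genes. The range was 0.129 to 0.227 within number 2 and 0.231 to 0.246 within number 3, against -0.254 to -0.142 between them, but -0.0168 to 0.0534 within number 1, so that the numbers were not taken to pair all libraries.

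Among the log2 fold changes of single genes, none of them called, 22 alternative values changed sign. The median of the 8 genes for yoked against saline, 0.012, was also below 0 without Rn45s, at -0.0024, and ranged over -0.029 to 0.023 with 1 pull-down left out. For cocaine against yoked, Arpp19 was at 0.0089 by limma-voom, 0.0076 in the fit of the 2 groups and 0.0088 without Rn45s, where the main value was -0.0016. For yoked against saline, Cdk5 was at 0.0078 without a filter and 0.0012 by limma-voom, where the main value was -0.0023. The cause was not tested. Leaving out 1 pull-down moved cocaine against saline over -0.028 to 0.24 for Arpp21, -0.12 to 0.018 for Ptpn5, -0.071 to 0.13 for Ppp1ca and -4.18e-05 to 0.079 for Cdk5r1. It moved cocaine against yoked over -0.089 to 0.19 for Arpp21, -0.10 to 0.16 for Arpp19 and -0.028 to 0.052 for Cdk5r1, and yoked against saline over -0.26 to 0.044 for Ppp1r1b, -0.079 to 0.14 for Arpp21, -0.052 to 0.066 for Cdk5 and -0.0051 to 0.058 for Cdk5r1. Of the 8 genes, 3 to 5 were past 1.5-fold over the input in every pull-down with 1 pull-down left out, 5 being without yoked 3. Leaving out a pull-down can only keep or raise this count, for all genes as for these. Under the other alternatives the ratios of the 8 genes to the input kept their direction. The log2 fold change of Ppp1r1a for cocaine against saline ranged over 0.22 to 0.46, and that of Cdk5 over 0.22 to 0.39, with 1 pull-down left out. Their unadjusted p-values lay on both sides of 0.05 among the alternatives. By limma-voom they were 0.058 for Ppp1r1a and 0.054 for Cdk5. Without cocaine 2 they were 0.185 and 0.177 in edgeR's test. With at least 1092 reads for each of the 8 genes in each library, no value was near the floor of 3 counts.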
